A study of Mus musculus with 17 samples.

Results

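The 10 genes described here belong to the machinery with which the endoplasmic reticulum (ER) folds and clears proteins: Hspa5, Hsp90b1, Calr, Pdia4, Manf, Creld2, Sdf2l1, Dnajb9, Herpud1 and Xbp1. They were picked by gene symbol, by a rule that holds no measured value, from the 18836 genes listed in at least 1 library. The choice was not blind, since earlier results of these data were known when the 10 genes and the other gene lists were chosen. All 10 were listed in all 17 libraries, and all 10 had a mean of at least 1 FPKM (fragments per kilobase of transcript, scaled to the library's mapped total), the filter for every test. In the mouse genome (RefSeq, GRCm38.p6) they lie on 9 chromosomes, as Hspa5 at chr2:34772090-34776529, Hsp90b1 at chr10:86690841-86705444, Calr at chr8:84842088-84846931, Pdia4 at chr6:47796141-47813512 and Manf at chr9:106888753-106891938. Creld2 lies at chr15:88819646-88826681, Sdf2l1 at chr16:17130138-17132383, Dnajb9 at chr12:44205897-44210068, Herpud1 at chr8:94386429-94395371 and Xbp1 at chr11:5520641-5525993.

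The cells were mouse neural retina progenitor cells (mNRPCs), a line established from the adult neural retina of C57BL/6 mice and propagated with basic fibroblast growth factor (bFGF) and CHIR99021. CHIR99021 is a small-molecule inhibitor of glycogen synthase kinase 3, used to activate Wnt/β-catenin signalling. Cells were kept for 1, 3, 5 or 7 days in basic medium (BM), in BM with bFGF (B), in BM with CHIR99021 (C) or in BM with both (BC), and 1 further library is the day 0 control. The study describes this control as cells cultured in BM, without saying for how long. Each combination of medium and day is 1 library of poly-A RNA, so there are no replicates.

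Proteins that enter the secretory pathway fold in the ER with the help of chaperones and of enzymes that make disulphide bonds. When unfolded proteins accumulate, the sensors IRE1 (Ern1), PERK (Eif2ak3) and ATF6 (Atf6) start the unfolded protein response (UPR). IRE1 splices Xbp1 mRNA, cleaved ATF6 and spliced XBP1 raise transcription of chaperone genes, and PERK favours translation of ATF4. ATF4 is also translated when amino acids are scarce, through another kinase, so its targets for amino acid supply can rise without ER stress. Values summed per gene do not show Xbp1 splicing.

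The deposited expected counts summed to 17571973 to 19428744 per library. Of the retinal progenitor markers, Pax6, Six3, Sox2 and Nes had a mean of at least 1 FPKM, whereas Six6 and Rax stayed under 0.1 FPKM in every library. No marker of the 7 for retinal pigment epithelium, 6 for photoreceptors, 5 for microglia or 4 for endothelium reached that mean. The 6 fibroblast and pericyte markers summed to 4.56 FPKM on day 0, 16.05 to 163.24 FPKM in the 8 libraries without bFGF and 7.8 to 38.79 FPKM in the 8 with it. All 4 of those that could be tested were lower with bFGF over days 1 to 7, where 33.9% of tested genes were, and by day 0 of the 4 were called on day 1, 3 on day 3 and all 4 on days 5 and 7. Of the 4 retinal progenitor markers tested, Pax6, Six3 and Sox2 were lower with bFGF over days 1 to 7, and on day 7 Pax6 (−2.99), Six3 (−0.92) and Nes (−0.56) were. Of the 5 Muller glia and astrocyte markers, only Glul reached a mean of at least 1 FPKM, and it was higher with bFGF (0.95 on day 7). Rlbp1, Gfap and Slc1a3 stayed under 1 FPKM in every library. The part of these markers in the results for the ER genes was not tested. In bulk RNA, fewer cells of a type and less RNA per cell cannot be told apart.

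Several of these genes carry in their promoters the ER stress element, which ATF6 binds with the factor NF-Y. The sequences are shown as a description, and no expression value was used to find them. The genes were picked as known ER chaperone and UPR genes, so a high share of this element among them is not independent of that choice. The stretch of 250 bases before the RefSeq gene start (GRCm38.p6) was given for 9 of the 10 genes. Manf was not among them. Both strands were searched for ERSE (CCAAT, any 9 bases, CCACG), ERSE-II (ATTGG, any base, CCACG), the XBP1 element UPRE (TGACG followed by TGG) and the ATF4 element CARE (TGATG, any base, AA). In the lines that follow, capitals mark the matched letters, in CARE with the base that may be any, and all sequences read 5′ to 3′ on the strand of the gene. They lie at chr2:34771995-34772073 for Hspa5 (plus strand), chr10:86705608-86705686 and chr10:86705503-86705581 for Hsp90b1 (minus), chr8:84847045-84847123 for Calr (minus) and chr15:88819490-88819568 for Creld2 (plus). The Herpud1 stretches (plus) are chr8:94386347-94386417 for ERSE-II and chr8:94386287-94386354 for CARE.
Hspa5 ERSE: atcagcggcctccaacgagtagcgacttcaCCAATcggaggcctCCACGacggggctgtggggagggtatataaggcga
Hsp90b1 ERSE, distal: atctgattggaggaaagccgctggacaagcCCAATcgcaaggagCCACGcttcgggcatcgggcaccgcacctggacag
Hsp90b1 ERSE, proximal: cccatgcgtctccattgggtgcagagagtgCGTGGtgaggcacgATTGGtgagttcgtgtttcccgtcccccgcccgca
Calr ERSE: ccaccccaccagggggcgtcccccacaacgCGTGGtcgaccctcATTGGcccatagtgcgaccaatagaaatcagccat
Creld2 ERSE: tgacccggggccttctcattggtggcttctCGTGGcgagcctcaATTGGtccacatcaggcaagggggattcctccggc
Herpud1 ERSE-II: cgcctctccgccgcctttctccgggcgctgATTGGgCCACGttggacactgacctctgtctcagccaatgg
Herpud1 CARE: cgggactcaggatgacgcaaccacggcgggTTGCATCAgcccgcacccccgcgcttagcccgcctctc

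ERSE was matched exactly in 4 of the 9 promoters (44.4%), and in 37 of all 32851 promoters of the same length (0.113%). The Hspa5 match began 65 bases before the gene start, and the Hsp90b1 matches began 212 and 107 bases before it. In Calr, Creld2 and the proximal Hsp90b1 match, ERSE lay on the opposite strand, so that it reads CGTGG, 9 bases, ATTGG. Herpud1 held ERSE-II, found in 10 of all promoters (0.0304%), and was the member with a CARE, found in 3.45% of all promoters. This CARE also lay on the opposite strand, so that it reads TT, any base, CATCA. UPRE was matched in none of the 9 and in 0.563% of all promoters. The promoters of Xbp1, Pdia4, Dnajb9 and Sdf2l1 held none of these exact letters in this window. Among 16 promoters of genes for amino acid supply and one-carbon metabolism known as ATF4 targets, ERSE was matched in 0 and CARE in 3 (Asns, Pycr1 and Slc7a11). Among 28 promoters of other ER chaperones and folding enzymes, ERSE was matched in 4 (Canx, Dnajc3, Ero1lb and Pdia6). A match is a run of letters, and binding was not measured.

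The levels of the 10 genes were compared per transcript length, in FPKM. Hspa5, which encodes the Hsp70 chaperone BiP, had the highest median over the 17 libraries at 551.6 FPKM, ahead of Hsp90b1 (GRP94) at 429.9 FPKM and the lectin-like chaperone Calr (calreticulin) at 411.3 FPKM. The next median was that of Pdia4, a protein disulphide isomerase, at 68.84 FPKM, followed by Manf at 63.93 FPKM and Herpud1 at 56.79 FPKM. Xbp1 had a median of 42.63 FPKM, Creld2 29.61 FPKM, Sdf2l1 21.85 FPKM and Dnajb9 19.11 FPKM. The ranges of neighbours in this order overlapped over the libraries, and only the gap between Calr (lowest 243 FPKM) and Pdia4 (highest 102.4 FPKM) separated every library of neighbouring genes. Hspa5 also varied most, with its highest library 10.6 times its lowest, against 5.28 times for Manf, 4.89 times for Sdf2l1 and 1.98 times for Pdia4.

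The summed FPKM of the 10 genes was 1283.8 on day 0, 829.6 in BM on day 3 and 4229.8 in B on day 5. As a share of all counts, these were 0.301%, 0.192% and 1.03%. Hspa5 alone took 0.0944% of counts on day 0, 0.05% in BM on day 3 and 0.532% in B on day 5, and moved from rank 286 by FPKM in BM on day 3 to rank 25 in B on day 5. With bFGF the sum was 3226.1 to 4229.8 FPKM on days 5 and 7, and without it 1019.9 to 1211.3 FPKM, so the groups did not overlap. Most of the sum came from Hspa5, Hsp90b1 and Calr, at 2063.81, 914.73 and 789.63 FPKM in B on day 5. It does not describe each gene, and Xbp1 was lower with bFGF on day 7.

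**Figure D1:**
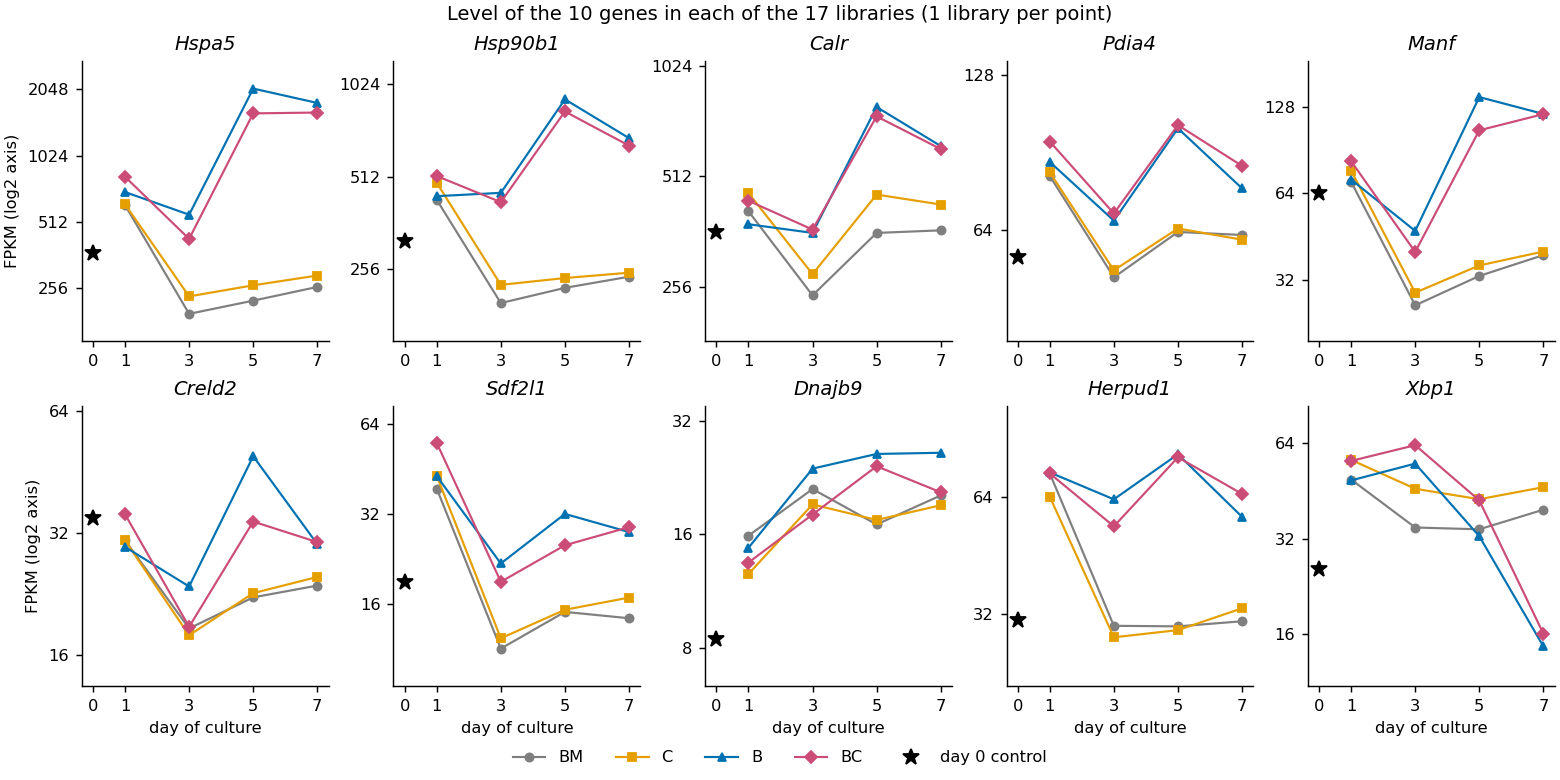
FPKM of the 10 genes (log2 axis) against day of culture, 1 panel per gene and 1 point per library. Media are BM (grey circles), C (orange squares), B (blue triangles) and BC (pink diamonds), and the star is the day 0 control. In the Hspa5 panel B and BC lie at 1592.13 to 2063.81 FPKM on days 5 and 7, above BM and C, whereas in the Xbp1 panel B and BC end below BM and C on day 7.

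The first question was whether bFGF changed these genes. Over days 1 to 7 the bFGF effect (B and BC against BM and C, with CHIR99021 and day in the model) was called for 9 of the 10 genes, all higher with bFGF. The background was wide, with 34.6% of the 11272 tested genes called higher and 33.9% called lower. Xbp1 was not called, with a log2 fold change of 0.05 (adjusted p = 0.804). In 8 of 8 pairs of media that differ in bFGF alone on the same day, FPKM was higher with bFGF for 6 of the 10 genes (Hspa5, Hsp90b1, Herpud1, Pdia4, Sdf2l1 and Manf), against 10.6% of tested genes. The adjusted p-values in this text are from edgeR's quasi-likelihood test with Benjamini-Hochberg adjustment over all tested genes. With no replicates, the spread in it is the departure of single libraries from additive effects, which may be technical.

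The effect depended on the day. The test of a difference of the bFGF effect between days called all 10 genes, as it did 76.3% of tested genes. On day 1 it called 0 of the 10 genes, where 10.7% of tested genes passed in either direction (6.21% higher and 4.46% lower). Before adjustment, edgeR's p was under 0.05 for 3 of the 10 on that day (Hspa5, Pdia4 and Sdf2l1), and for 2979 of all 11272 tested genes. DESeq2 and limma also called 0 of the 10. On day 3, 8 of 10 were higher, against 25.4% of tested genes higher and 25.0% lower. On day 5 all 10 were higher, against 37.2% higher and 38.6% lower. On day 7, 9 were higher and 1 was lower, against 38.8% and 39.6%. The median log2 fold change of the 10 genes was 0.16, 0.71, 1.37 and 1.29 on days 1, 3, 5 and 7.

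These values rest on TMM scaling, which centres the bulk of genes. In FPKM, which divides by the total alone, the median tested gene was lower with bFGF by 0.422 and 0.389 on day 5 and by 0.46 and 0.501 on day 7, on the log2(FPKM + 1) scale, in the pairs without and with CHIR99021. With library totals as the only scaling, the median log2 fold change of all tested genes was −0.544 on day 7 and the median of the 10 genes was 0.757. With TMM, 49.5% of the genes called on day 7 were higher, and with library totals 27.1%.

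**Figure D2:**
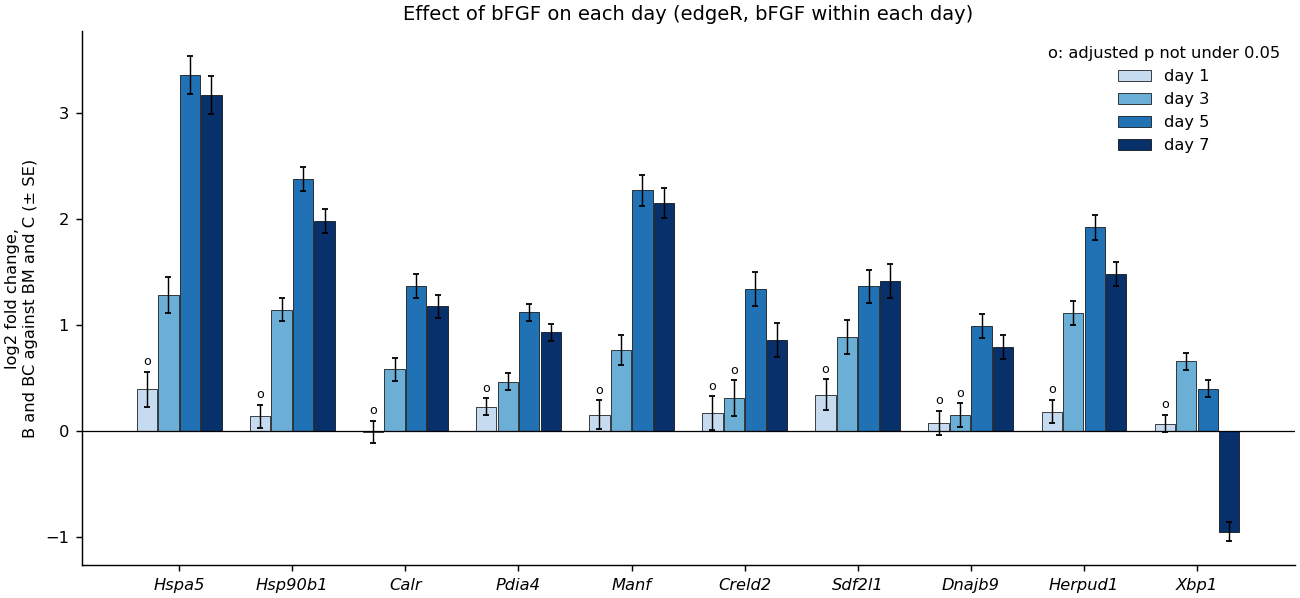
Log2 fold change with bFGF on days 1, 3, 5 and 7 for each of the 10 genes, from edgeR with TMM scaling. Bars start at 0, whiskers are the standard error of the coefficient, and an open circle marks an adjusted p not under 0.05. All 10 day 1 bars carry a circle, the Hspa5 bar reaches 3.36 on day 5, and the Xbp1 bar turns from 0.66 on day 3 to −0.95 on day 7.

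Hspa5, the highest of the 10 genes by median level, encodes the protein that holds the UPR sensors inactive. It showed the widest bFGF effect of the 10 genes, although without bFGF Calr lay above it on days 3, 5 and 7. On day 1 the level of Hspa5 was 609.68 FPKM (BM), 614.57 (C), 698.99 (B) and 820.15 (BC). On day 3 it was 195.44 (BM), 234.62 (C), 551.6 (B) and 428.17 (BC). The groups without and with bFGF did not overlap on either day, but their gap was narrow on day 1. On day 5 the level was 224.36 FPKM (BM), 263.42 (C), 2063.81 (B) and 1592.13 (BC). On day 7 it was 258.95 (BM), 291.81 (C), 1775.81 (B) and 1606.06 (BC). B held 9.2 times the FPKM of BM on day 5, and BC held 6.04 times that of C. The log2 fold change was 0.39 ± 0.17 (SE) on day 1 (adjusted p = 0.159), 1.29 ± 0.17 on day 3, 3.36 ± 0.18 on day 5 and 3.17 ± 0.18 on day 7 (adjusted p = 1.67e-08).

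Hsp90b1, the ER form of Hsp90, followed Hspa5 most closely over the 17 libraries (Pearson r = 0.978 of log2(FPKM + 1), a description over libraries of 1 time course). Its level on day 1 was 429.88 FPKM (BM), 488.78 (C), 441.82 (B) and 513.93 (BC), and the groups overlapped. On day 3 it was 197.82 (BM), 226.83 (C), 452.97 (B) and 422.43 (BC). By day 5 it stood at 221.75 FPKM (BM), 238.77 (C), 914.73 (B) and 834.95 (BC), and on day 7 at 241.13 (BM), 248.51 (C), 683.61 (B) and 646.05 (BC). From day 3 on, both libraries with bFGF lay above both without it. The log2 fold change was 0.14 ± 0.11 (SE) on day 1, 1.14 ± 0.11 on day 3, 2.38 ± 0.11 on day 5 and 1.99 ± 0.11 on day 7 (adjusted p = 1.53e-08).

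Calr, a calcium-binding lectin chaperone for glycoproteins, was as high as Hsp90b1 in level but moved less. On day 1 its level was 411.31 FPKM (BM), 460.99 (C), 379.25 (B) and 439.29 (BC). On day 5 it was 359.18 (BM), 456.58 (C), 789.63 (B) and 744.86 (BC), and on day 7 365.03 (BM), 429.1 (C), 618.76 (B) and 607.19 (BC). The groups overlapped on day 1 and were separate from day 3 on. Its log2 fold change was −0.01 ± 0.11 (SE) on day 1, 0.58 ± 0.11 on day 3, 1.37 ± 0.11 on day 5 and 1.18 ± 0.11 on day 7. Calr was the member whose day 7 value changed sign under quantile scaling, to −0.209. Pdia4, which forms and rearranges disulphide bonds, had the narrowest range. It stood at 62.5 FPKM (BM), 61.19 (C), 77.06 (B) and 85.25 (BC) on day 7, and its log2 fold change was 0.93 ± 0.08 (SE, adjusted p = 4.40e-07).

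Manf and Creld2 encode small ER-resident proteins that are also secreted under ER stress, Manf being a neurotrophic factor. Manf stood at 70.18 FPKM (BM), 76.73 (C), 71.44 (B) and 82.72 (BC) on day 1. On day 5 it was at 33.07 (BM), 35.96 (C), 138.07 (B) and 105.88 (BC), and on day 7 at 39.06 (BM), 40.2 (C), 120.68 (B) and 120.48 (BC). Its groups overlapped on day 1 and lay apart on days 5 and 7, with log2 fold changes of 2.27 ± 0.14 (SE) and 2.15 ± 0.14 (adjusted p = 5.01e-08). Creld2 moved less, from 22.23 FPKM (BM), 22.77 (C), 49.58 (B) and 34.2 (BC) on day 5 to 23.77 (BM), 24.96 (C), 30.09 (B) and 30.43 (BC) on day 7. Its log2 fold change was 1.34 ± 0.16 (SE) on day 5 and 0.86 ± 0.16 on day 7 (adjusted p = 0.000382), and the day 7 call was lost with library totals as the only scaling (0.318).

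Sdf2l1 and Dnajb9 (ERdj4) assist BiP, Dnajb9 as a J-domain co-chaperone. Sdf2l1 was highest on day 1, at 38.94 FPKM (BM), 42.97 (C), 42.87 (B) and 55.39 (BC). On day 7 it was at 14.32 (BM), 16.79 (C), 27.85 (B) and 28.92 (BC), with a log2 fold change of 1.41 ± 0.16 (SE, adjusted p = 3.85e-06). Its expected count was whole in 10 of 17 libraries, whereas the other 9 genes had whole counts in all 17, so in 7 libraries some of its reads were assigned by estimate. Dnajb9 was the lowest of the 10 in median level, at 20.29 FPKM (BM), 19.11 (C), 26.33 (B) and 20.69 (BC) on day 7. Its log2 fold change on day 7 was 0.79 ± 0.11 (SE, adjusted p = 3.24e-05), and it was no longer called with library totals as the only scaling (0.254).

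Herpud1 is an ER membrane protein that serves ER-associated degradation, the export of misfolded proteins to the proteasome. Its level on day 1 was 73.47 FPKM (BM), 63.95 (C), 73.87 (B) and 73.42 (BC). On day 3 it was at 29.79 (BM), 27.83 (C), 62.99 (B) and 53.68 (BC), on day 5 at 29.69 (BM), 29.04 (C), 82.27 (B) and 80.78 (BC). On day 7 the values were 30.6 (BM), 33.04 (C), 56.79 (B) and 65.05 (BC). From day 3 on the libraries without bFGF stayed in a narrow band, and those with bFGF lay above it. The log2 fold change was 0.18 ± 0.11 (SE) on day 1, 1.12 ± 0.11 on day 3, 1.92 ± 0.12 on day 5 and 1.48 ± 0.12 on day 7 (adjusted p = 1.82e-07).

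Xbp1, the transcription factor of the IRE1 branch, took another course than the chaperones. On day 1 its level was 49.2 FPKM (BM), 56.77 (C), 48.89 (B) and 56.34 (BC). On day 3 it was at 34.7 (BM), 46.01 (C), 55.25 (B) and 63.19 (BC). Libraries with bFGF were thus higher on day 3, with a log2 fold change of 0.66 ± 0.08 (SE, adjusted p = 5.49e-05). On day 5 the level was 34.25 FPKM (BM), 42.63 (C), 32.57 (B) and 42.26 (BC). The groups overlapped, and the direction depended on the scaling, with a log2 fold change of 0.40 ± 0.08 (SE) under TMM and −0.0445, not called, with library totals. On day 7 the level was 39.5 FPKM (BM), 46.54 (C), 14.61 (B) and 16.03 (BC). Both libraries with bFGF were then the lowest of all 17, at 0.37 and 0.344 times their pairs, and the log2 fold change was −0.95 ± 0.09 (SE, adjusted p = 6.85e-07). On the same day and in the same libraries Hspa5 was 6.86 and 5.5 times its pairs. The Pearson r of Xbp1 with the other 9 genes over the 17 libraries was −0.417 to 0.0947, against a median of 0.77 among the 36 pairs of those 9. Among those 9, Dnajb9 also had low values with the rest, from −0.216 (Sdf2l1) to 0.359 (Calr).

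The second question was how the genes changed with time in each kind of medium. Without bFGF, 9 of the 10 genes fell from day 1 to day 3, against 32.0% of tested genes lower, and 1 rose, against 35.4% higher. The falls were 1.78 for Sdf2l1, 1.49 for Hspa5, 1.40 for Manf and 1.23 for Herpud1 on the log2 scale, each given here as its size below 0, and the gene that rose was Dnajb9 (0.53). With bFGF, 6 fell, against 32.9% of tested genes lower, and 2 rose, against 32.4% higher. Sdf2l1 fell by 1.23, Manf fell by 0.78 and Hspa5 fell by 0.59 on the log2 scale. Of these 8 calls, 4 were left without the BC library of day 1 and 5 without that of day 3. The difference between both courses, which is the bFGF effect on day 3 minus that on day 1, was called for 6 genes and above 0 for each, against 13.4% of tested genes. They were Hspa5 (0.90), Hsp90b1 (1.01), Xbp1 (0.59), Herpud1 (0.93), Calr (0.59) and Manf (0.61). Of these, 3 were left without the B library of day 1.

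From day 3 to day 7 without bFGF, Calr (0.57) and Manf (0.48) rose and the other 8 genes were not called, against 9.15% of tested genes higher. Both calls were lost without BM of day 3 or without C of day 7, and 1 of them without C of day 3 or BM of day 7. With bFGF, 9 of the 10 rose, against 32.7% of tested genes higher, by 0.47 (Herpud1) to 2.20 (Hspa5) on the log2 scale. With library totals alone, Herpud1 (0.0666) and Dnajb9 (0.169) were no longer called, and Herpud1 changed sign under quantile scaling (−0.000846). Under quantile scaling the calls of Hsp90b1 (0.123) and Pdia4 (0.126) were lost too. Xbp1 fell by 1.55 ± 0.09 (SE, adjusted p = 1.84e-07), and 33.6% of tested genes were lower in that comparison. The bFGF effect on day 7 minus that on day 1 was above 0 and called for the 9 genes other than Xbp1, against 31.3% of tested genes.

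Day 0 is 1 library, so it was compared by folds of FPKM + 1 with no test. In all 4 libraries of day 1, Hspa5, Xbp1, Herpud1 and Sdf2l1 were at least 1.5 times above day 0, which is 4 of the 10 genes against 8.57% of 11258 genes. On day 0 Hspa5 was at 368.81 FPKM and Herpud1 at 30.91 FPKM, and on day 1 they were at least 1.65 and 2.07 times as high. In BM and C of day 3, Hspa5, Sdf2l1, Manf and Creld2 were at least 1.5 times below day 0, again 4 of 10, against 23.1% of genes. Manf was lowest there, at 0.409 and 0.453 times day 0. In B and BC of days 5 and 7, Hspa5, Hsp90b1, Herpud1, Dnajb9, Calr and Manf were at least 1.5 times above day 0, which is 6 of 10 against 14.3%. The median log2 difference from day 0 was −0.618 for the 10 genes and 0.184 for all genes in BM of day 3, and 1.11 and −0.264 in B of day 5. Xbp1 was at 0.57 and 0.625 times day 0 in B and BC of day 7, the only libraries in which it lay below day 0.

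The third question was whether CHIR99021 changed these genes. The tests fixed for it called 0 of the 10. Over days 1 to 7 edgeR called 0.337% of tested genes in either direction, without bFGF 0.0% and with bFGF 0.00887%, and the interaction of both factors also called 0.00887%. Before adjustment, p was under 0.05 for 0 of the 10 in each of these comparisons. Among all 11272 genes that number was 1126, 461, 751 and 178, and DESeq2 called 281, 57, 117 and 5 genes, none of them among the 10. The effect of bFGF differed by day, and a model that lets it do so lowered the biological coefficient of variation from 24.7% to 10%. In that model, added after the data were seen, CHIR99021 called 9.72% of tested genes higher and 9.79% lower, and of the 10 genes Xbp1 higher and Dnajb9 lower.

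Xbp1 was higher with CHIR99021 in 8 of 8 pairs of media that differ in CHIR99021 alone, which held for 6.64% of tested genes, while 7.0% were lower in all 8. Its log2 fold change was 0.26 ± 0.04 (SE, adjusted p = 0.00199). The mean pair difference in log2(FPKM + 1) was 0.253 ± 0.0944 (SD, n = 8 pairs). Dnajb9 was lower with CHIR99021 in 7 of 8 pairs, with a log2 fold change of −0.18 ± 0.06 (SE, adjusted p = 0.0409). The value for Hspa5 was 0.01 ± 0.08 (SE), but its pairs split by bFGF. C exceeded BM on all 4 days, and BC exceeded B on day 1 and lay below it on days 3, 5 and 7. The test of that interaction did not call it, at −0.37 ± 0.74 (SE, adjusted p = 1). That test could not decide on the split, since its model holds 1 bFGF effect for all days. The change of the Hspa5 bFGF effect between days thus counted as spread. The biological coefficient of variation of that model was 25.4%, against 10% with bFGF within each day.

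**Figure D3:**
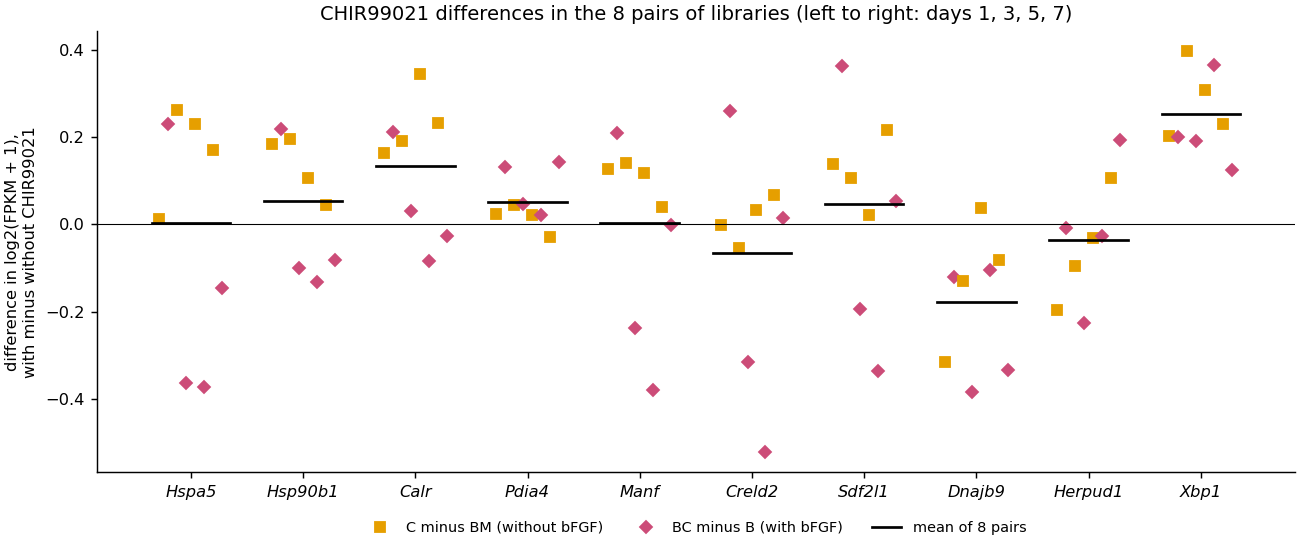
Difference in log2(FPKM + 1) with CHIR99021 for each of the 10 genes, 8 pairs per gene, with C minus BM as squares and BC minus B as diamonds, and a line at the mean of the 8. All 8 Xbp1 points lie above 0 with a mean of 0.253, and the Hspa5 squares lie above 0 while 3 of its 4 diamonds lie below.

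The other genes of the pathway were counted on lists to set the 10 genes beside the branches of the UPR and beside the ATF4 response to amino acids. Differences between lists were not tested. Of the sensors and membrane transcription factors, 1 of 9 tested was higher with bFGF over days 1 to 7 and 4 were lower (median log2 fold change −0.147). Of all tested genes, 34.6% were higher and 33.9% lower, the shares that stand behind every count of a list over days 1 to 7 under TMM scaling. Among the sensors and membrane transcription factors, the gene that was higher was Atf6, at 0.97 ± 0.12 (SE, adjusted p = 8.85e-05). Its level was 8.55 FPKM (BM), 7.48 (C), 13.08 (B) and 10.17 (BC) on day 7, and it was called higher on each of the 4 days, day 1 included (0.53). Over days 1 to 7 Ern1 was not called (0.02, adjusted p = 0.866), but by day it was higher on day 1 (0.42, adjusted p = 0.0416) and lower on day 7 (−0.42, adjusted p = 0.00601). Atf6b was not called over days 1 to 7 (0.15, adjusted p = 0.168) and was higher on day 7 (0.40, adjusted p = 0.00756). Eif2ak3 was lower over days 1 to 7 (−0.32, adjusted p = 0.0425), and by day on day 7 alone (−0.90, adjusted p = 0.000111). The Eif2ak3 call was lost without any filter on low values, with quantile scaling and without any 1 of 8 libraries (−0.328 to −0.211), those of BM and BC on days 1 and 3 and all 4 of day 7.

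Of 32 other ER chaperones and folding enzymes, 15 were higher and 6 lower with bFGF over days 1 to 7 (median 0.238), where 34.6% of all tested genes were higher and 33.9% lower. Among the higher genes were the BiP exchange factor Hyou1 (0.87), the disulphide isomerases Pdia3 (0.75), P4hb (0.81) and Pdia6 (1.09), and the membrane chaperone Canx (0.63). The BiP co-chaperones Dnajc3 (−0.15, adjusted p = 0.223) and Dnajb11 (−0.11, adjusted p = 0.18) were not called over days 1 to 7. Under other settings they were called lower, Dnajc3 under 5 (−0.441 to −0.263) and Dnajb11 under 6 (−0.397 to −0.181), library totals alone and limma among them. By day, Dnajc3 was lower on days 3 (−0.57) and 7 (−0.28) and higher on day 5 (0.35), and Dnajb11 was lower on day 3 (−0.31) and not called on the other days. Of 25 genes of ER-associated degradation, 11 were higher and 5 lower (median 0.171, the same background), Edem1 (0.44) among the higher. The Edem1 call was lost with library totals alone (0.147) and with limma at a pseudocount of 1 (0.135) or 0.1 (0.141). The ligase Syvn1 (0.17, adjusted p = 0.119) and its partner Sel1l (0.15, adjusted p = 0.123) were not called over days 1 to 7, but both were higher on day 5, Syvn1 at 0.61 (adjusted p = 0.000157) and Sel1l at 0.50 (adjusted p = 0.000298). Derl3 was too low to be tested, at 0.14 to 1.3 FPKM.

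Of 35 genes of ER translocation and early secretory transport, 24 were higher and 1 lower, with the retrieval receptors Kdelr2 at 0.98 and Kdelr3 at 0.77 and the translocon subunit Sec61b not called over days 1 to 7 (0.26, adjusted p = 0.0552) but higher on days 3 (0.45) and 5 (0.70). These lists depended on the scaling, and Kdelr3 was no longer called with library totals alone (0.476). With library totals alone the counts were 13 higher and 13 lower for the other chaperones (median −0.0524), 5 and 10 for degradation (median −0.118) and 11 and 6 for transport, whereas 8 of the 10 genes were still higher and 0 lower (median 0.6). The median of all tested genes was −0.291 under that scaling and −0.00233 under TMM. The shares of all tested genes given for the lists are those under TMM and do not stand behind these counts with library totals.

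PERK-branch and integrated stress response genes were higher with bFGF over days 1 to 7 in 11 of 13 cases and lower in 0 (median 0.871), against 34.6% and 33.9% of tested genes. Atf4, the transcription factor of this branch, was at 1.45 (adjusted p = 0.000312) and the pro-apoptotic factor Ddit3 (CHOP) at 2.59 (adjusted p = 0.000713). Ddit3 stood at 66.6 FPKM (BM), 73.37 (C), 705.29 (B) and 640.94 (BC) on day 7, against 43.23 FPKM on day 0. Libraries with bFGF thus held far more Ddit3 than those without, with a log2 fold change of 3.84 ± 0.22 (SE). The expected count of Ddit3 was whole in 0 of 17 libraries, so all its values rest in part on reads assigned by estimate. Atf6b, Syvn1, Slc7a11 and Dnajb1 also had a whole count in 0 libraries, Hspa1a in 1, and Dnajb11 and Hsp90aa1 in 14. The pseudokinase Trib3 was at 1.93, the phosphatase subunit Ppp1r15a at 1.75, Atf3 at 1.04 and Chac1, which degrades glutathione, at 0.66 over days 1 to 7.

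Amino acid and one-carbon genes were higher over days 1 to 7 in 14 of 19 cases and lower in 0 (median 0.871), with asparagine synthetase (Asns) at 1.75, and the serine synthesis enzymes Psat1 at 1.08 and Phgdh at 0.44 (−0.138 under quantile scaling). The Phgdh call was also lost with library totals alone (0.15). The cystine transporter Slc7a11 was not called over days 1 to 7 (−0.55, adjusted p = 0.264), but by day it was higher on day 3 (1.06, adjusted p = 0.0118) and lower on days 5 (−2.24) and 7 (−1.49, adjusted p = 0.00098). The courses over the days are set side by side as a description. The amino acid list had medians of 0.359, 1.11, 0.919 and 0.697 on days 1, 3, 5 and 7, highest on day 3, and counts of 7, 16, 15 and 13 higher and 0, 0, 2 and 5 lower of 19. On the same days 6.21%, 25.4%, 37.2% and 38.8% of all tested genes were higher and 4.46%, 25.0%, 38.6% and 39.6% lower. The medians of the 10 ER genes on the same days, given above, were highest on day 5, and those of the PERK list were 0.227, 0.855, 1.31 and 1.46. On day 1, when 0 of the 10 ER genes passed, 7 amino acid genes did under TMM, 4 with library totals and 2 with limma on log2(FPKM + 1). The shares of all tested genes given here are those under TMM and do not stand behind the counts with library totals or limma. Of the 13 PERK-branch genes, 3 were called higher on that day, Atf4 (0.39, adjusted p = 0.0242), Chac1 (0.56, adjusted p = 0.0394) and Ppp1r15a (0.74, adjusted p = 0.0193), and 1 lower, Ddit4 (−0.45, adjusted p = 0.039), named after its value was seen. Trib3 (0.37, adjusted p = 0.0708), Ddit3 (0.23, adjusted p = 0.487) and, of the amino acid list, Asns (0.39, adjusted p = 0.106) were not called.

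**Figure D4:**
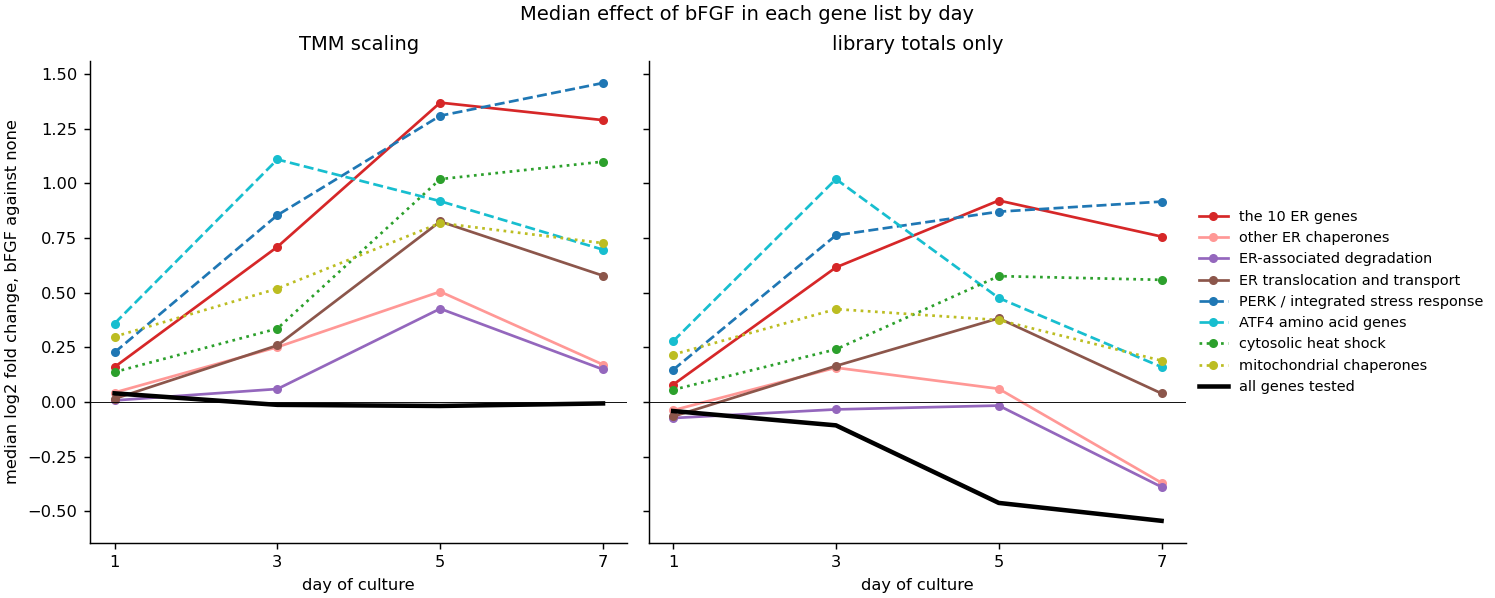
Median log2 fold change with bFGF on days 1, 3, 5 and 7 for each gene list and, in black, for all tested genes, with TMM scaling on the left and library totals alone on the right. With TMM the 10 ER genes reach 1.37 on day 5, the amino acid list peaks at 1.11 on day 3, and with library totals all tested genes sit at −0.544 on day 7.

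Chaperones outside the ER were counted the same way, against 34.6% of all tested genes higher and 33.9% lower over days 1 to 7. Of 18 cytosolic heat shock genes, 12 were higher and 4 lower over days 1 to 7 (median 0.669), with Hspa8 at 0.97, Hsp90aa1 at 1.00 and the stress-inducible Hspa1a at 2.70 (adjusted p = 0.0103). The Hspa8 call was lost under quantile scaling (0.0499). The co-chaperone Dnajb1 was lower (−0.55, adjusted p = 0.00711), and by day it was lower on days 3 (−1.16) and 5 (−0.87). On day 7 Hspa8 was at 1.59, Hsp90aa1 at 2.20 and Hspa1a at 6.47, beside 3.17 for Hspa5, and Dnajb1 was not called (−0.10). Of 12 mitochondrial chaperones and proteases, 9 were higher and 0 lower (median 0.536).

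The genes whose pattern over the 17 libraries was most like the mean of the 10 were sought among 8855 genes by Pearson correlation of log2(FPKM + 1), as a description. The first was Pdia6 (r = 0.966), at 98.9 FPKM in BM of day 3 and 320.39 FPKM in B of day 5, followed by Dot1l and Atxn2l (both 0.945), Tmem39a (0.935) and Desi2 (0.924). Rbm15 (0.923), Nans (0.921), Kctd6 (0.919), Ciart (0.916) and Txndc5 (0.915) completed the first 10. Of these, Pdia6 and Txndc5, both disulphide isomerases, were on the list of ER folding enzymes.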

How the data were processed

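RNA of mNRPCs was sequenced in 17 libraries (BGISEQ-500). The deposited tables give an expected count and an FPKM value per gene. The submitters' processing notes name Bowtie2, RSEM and mm10, while the study's methods name eXpress for FPKM; versions, strand setting and annotation are not given in the sources used here. The authors' expected counts, 63.9% to 66.6% of them whole, were rounded. Totals of 17571973 to 19428744 set the counting error. FPKM values, as made by the authors, were used as deposited for levels, pairs (log2, pseudocount 1) and day 0.

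Genes with a mean of at least 1 FPKM in the 16 cultured libraries (11272) were fitted with edgeR 4.0.16 (quasi-likelihood, TMM, Benjamini-Hochberg, threshold 0.05, R 4.3.3), with bFGF, CHIR99021 and day, with bFGF within each day, or with the interaction of both factors. The scripts were tested on simulated data. Alternatives were DESeq2 1.42.0, limma 3.58.1, other scalings, filters and pseudocounts, each day alone and each library left out. The model of CHIR99021 with bFGF within each day was added after seeing the data. Promoters came from RefSeq (GRCm38.p6). Genes to be named in each list were fixed by symbol, whatever their result, and the genes most alike by correlation among genes with a mean of at least 5 FPKM. The 10 genes and all lists were chosen with earlier results of these data known.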

Additional observations from a re-analysis of the deposited data

Results flagged for a closer look

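For each of the 10 genes the bFGF effect differed between days by edgeR's test of the 3 differences together, which also called 76.3% of all tested genes. The bFGF effect on day 7 minus that on day 1, on the log2 scale, was 2.78 for Hspa5, 1.999 for Manf, 1.85 for Hsp90b1, 1.30 for Herpud1, 1.19 for Calr and 1.07 for Sdf2l1. It was 0.71 for Dnajb9, 0.70 for Pdia4 and 0.69 for Creld2. For Xbp1 it was −1.02, the one value below 0.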

How the results depend on the processing

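Counts of the 10 genes called for bFGF were 8 to 9 over days 1 to 7, 6 to 8 on day 3, 9 to 10 on day 5 and 8 to 10 on day 7 over all alternatives. Leaving out 1 library at a time gave 9 over days 1 to 7, 0 on day 1, 8 on day 3, 10 on days 5 and 7, and 10 for the difference between days. It gave 3 to 7 for day 3 minus day 1 of the bFGF effect, 9 to 10 for day 7 minus day 1, 10 for day 3 minus day 1 without bFGF and 4 to 8 with it. It gave 0 to 2 for day 7 minus day 3 without bFGF, 10 with it, and 0 for each CHIR99021 comparison. With bFGF within each day the CHIR99021 count over days 1 to 7 was 2 in place of 0. Signs of called values reversed for Xbp1 on day 5 with library totals (−0.0445) and with limma at a pseudocount of 1 (−0.0414) or 0.1 (−0.0424). With quantile scaling they reversed for Calr on day 7 (−0.209), Herpud1 from day 3 to day 7 with bFGF (−0.000846) and Phgdh over days 1 to 7 (−0.138). The cause was not tested. Of 1189 values of single genes under alternatives other than leaving out a library, 1130 kept their side of the threshold and, where called, their direction, 37 were no longer called, 16 became called and 6 reversed. Of all 3125 such values, 90 that were called in neither fit had the other sign. Total counts were alike in all libraries, and with no replicates the p-values rest on departures from additive effects.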

Other observations

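With bFGF within each day, the model added after the data were seen, genes of ER translocation and early secretory transport were higher with CHIR99021 in 22 of 35 cases and lower in 1 (median log2 fold change 0.179), where 9.72% of tested genes were higher and 9.79% lower. Among them were Kdelr2 (0.31), Kdelr3 (0.28) and Sec61b (0.25). Of 32 other ER chaperones and folding enzymes, 12 were higher and 0 lower (median 0.108), with P4hb at 0.42 (edgeR adjusted p = 0.000349) and Pdia3 at 0.16. Counts on the other lists were 5 higher and 1 lower of 25 for ER-associated degradation, 2 and 2 of 9 for sensors, 2 and 1 of 13 for the PERK branch, 3 and 4 of 19 for amino acid genes, 1 and 3 of 18 for cytosolic and 0 and 1 of 12 for mitochondrial chaperones. In the model with 1 bFGF effect for all days, 1 gene of ER-associated degradation and 0 of the transport genes were called.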
